A study of Homo sapiens with 12 samples.

Results

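BCL6, PRDM1, XBP1, MYBL1, SDC1, CD27 and CD38 mark or steer B cells on their way through the germinal centre and on to the plasma cell. Their rows were taken by symbol from a gene table of RNA-Seq levels, and all 7 were found among its 26210 genes. The table held 12 libraries of total RNA depleted of ribosomal RNA, in 6 conditions of 2 libraries each. Classical Hodgkin lymphoma (cHL) was represented by the cell lines KM-H2, L1236 and L428, which were cultured from its Hodgkin and Reed-Sternberg (HRS) tumour cells. The controls were Namalwa, a Burkitt's lymphoma line, and Reh, a B-cell precursor leukaemia line. The sixth condition, Reh_PMA, was Reh treated with 2 ng/ml phorbol myristate acetate (PMA), an activator of protein kinase C, which the study applied for 8 or 16 h in other assays; which of these holds for the RNA-Seq libraries is not given. Each line stands for 1 tumour. The sources used here do not say whether duplicate libraries came from separate cultures, so p-values measure the spread between libraries, which may be technical.

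In the germinal centre, the repressor BCL6 keeps B cells dividing and mutating their antibody genes, and it holds down the genes of plasma cell exit. Exit is governed by PRDM1 (BLIMP-1), which represses BCL6 and much of the B cell programme, and by XBP1, which is activated by unconventional splicing in the unfolded protein response and expands the secretory apparatus. HRS cells descend from germinal centre B cells and have lost most of their B lineage programme.

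The lines were first checked against markers of their cell types, in FPKM (fragments scaled to transcript length and to the mapped fragments of the library, a level per length that can be compared between genes). TNFRSF8, the surface receptor by which HRS cells are diagnosed, lay between 19.1 and 63.7 FPKM in the 6 Hodgkin libraries and at most at 0.505 FPKM elsewhere. The 7 Hodgkin markers summed to between 153 and 1600 FPKM in the Hodgkin libraries, to 15.7 and 14.8 FPKM in Reh, 43.5 and 39.7 FPKM in Reh_PMA, each led by FSCN1, and to 1.07 and 1.38 FPKM in Namalwa. Among them CSF1R was highest in Reh_PMA, at 11.8 and 11.2 FPKM against at most 2.05 FPKM in the Hodgkin libraries, and IL13 was below 1 FPKM in KM-H2 and L1236. In the Hodgkin libraries, the B lineage markers MS4A1 and CD79B reached no more than 0.592 FPKM, CD79A, EBF1 and CD22 reached up to 2.55, 3.01 and 3.44 FPKM, all in KM-H2, and PAX5 was at 33.8 and 19.8 FPKM in L1236 and at most at 1.84 FPKM in the other Hodgkin lines. The precursor enzymes RAG1 and DNTT stood at 435 and 384 FPKM and at 87.9 and 103 FPKM in the 2 Reh libraries. The 7 precursor markers summed to 1470 and 1340 FPKM in Reh and to 135 and 145 FPKM in Reh_PMA, where RAG1 was at 5.09 and 11.9 FPKM, IGLL1 at 39.9 and 69.7 FPKM, against 513 and 472 FPKM in Reh, and DNTT at 75 and 41.6 FPKM. Namalwa carried the Burkitt marker TCL1A at 793 and 1030 FPKM. The labels held on most of these genes, with further exceptions. VPREB1, a surrogate light chain gene of precursor B cells, was listed at 0 in all 4 Reh and Reh_PMA libraries and stood at 11.4 and 7.89 FPKM in Namalwa, which also carried the precursor genes RAG1 (35.7 and 19.2 FPKM), RAG2 (40.8 and 30.8 FPKM) and IGLL1 (48.0 and 70.2 FPKM). The 5 myeloid markers summed to 30.5 and 36.1 FPKM in Reh, led by the enzyme MPO at 24.8 and 32.0 FPKM, to 8.56 and 8.67 FPKM in Reh_PMA, to 15.8 and 10.2 FPKM in KM-H2, led by ITGAM (9.14) and CD14 (4.56), to 5.65 FPKM in L428 library 1 and to at most 0.849 FPKM in the other 5 libraries. In KM-H2, the 4 T cell markers found summed to 17.8 and 26.3 FPKM, led by CD3D at 13.5 and 22.5 FPKM, while CD3E was at 0.197 and 0 FPKM. The part of these markers in the values below was not tested. Of the 5 plasma cell markers, MZB1 was the most abundant in 10 of the 12 libraries, and SLAMF7 was below 1 FPKM in all 12.

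Before any comparison, 4 libraries stood apart from the other 8. RPS27, a ribosomal protein gene, was between 0.357 and 2.75 FPKM in L1236 library 1, L428 library 1 and both Reh_PMA libraries, and between 3980 and 10800 FPKM in the other 8. The library numbers 0 and 1 are those of the table's columns and were not taken to pair libraries across conditions. The median over 82 ribosomal protein genes was 248 to 621 FPKM in the 4 libraries and 1180 to 2050 FPKM in the rest. Both Reh_PMA libraries were of this kind and both Reh libraries were not, so that the effect of PMA and the kind of library cannot be told apart from these 4 libraries alone. L1236 and L428 each had 1 library of either kind. A fit with the kind of library as a term, chosen after seeing the data, takes its size from those 2 lines, and its values are given beside the results for PMA. The table holds no read counts. Steps between its lowest values put the depth of the libraries at 0.39 (KM-H2 library 0) to 2.36 (L1236 library 1) times that of Reh library 0, so low levels were measured least finely in KM-H2.

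**Figure D1:**
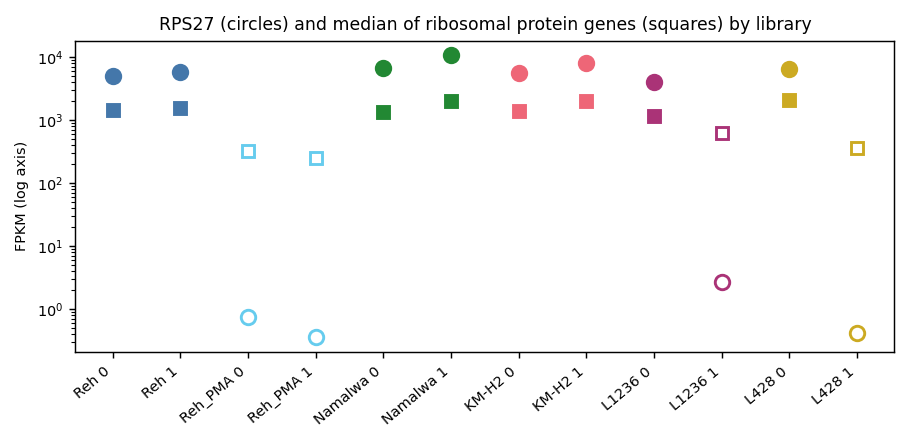
FPKM on a log axis for RPS27 (circles) and for the median of 82 ribosomal protein genes (squares) in each of the 12 libraries, coloured by condition, with open symbols for RPS27 under 100 FPKM. The open symbols, 4 libraries of L1236, L428 and Reh_PMA, have RPS27 at 0.357 to 2.75 FPKM, and all other libraries have it at 3980 or more.

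BCL6 lies on chromosome 3 (GRCh37 chr3:187439165-187463513, minus strand). It was at 39.4 and 28.2 FPKM in Reh, 62.0 and 53.9 in Reh_PMA, 51.5 and 51.1 in Namalwa, 6.01 and 5.79 in KM-H2, 1.87 and 2.07 in L1236, and 13.0 and 24.1 in L428. All 6 Hodgkin libraries lay below all 4 libraries of the untreated controls, with L428 the nearest to them. In the order of levels, the steps from Reh_PMA to Namalwa and on to Reh did not exceed the spread, and those from Reh down to L428, KM-H2 and L1236 did, as judged by the 95% interval of each difference between neighbours.

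PRDM1 lies on chromosome 6 (GRCh37 chr6:106441338-106557814, plus strand). Its 2 values were 0 and 0.0900 FPKM in Reh, 0.0282 and 0.0267 in Reh_PMA, 0.155 and 0.101 in Namalwa, 1.33 and 1.15 in KM-H2, 0.794 and 0.273 in L1236, and 9.49 and 12.8 in L428. This was the mirror image of BCL6 in one respect, since all 6 Hodgkin libraries lay above all 4 untreated control libraries, but L428, which kept the most BCL6 of the Hodgkin lines, also had the most PRDM1. L428 exceeded KM-H2 and KM-H2 exceeded L1236 beyond the spread, while no neighbours among L1236, Namalwa, Reh and Reh_PMA did. With a pseudocount of 0.1, L1236 exceeded Namalwa as well. The gene ATG5 overlaps PRDM1 on the opposite strand in the GRCh37 annotation, and it too was highest in L428, at 31.3 and 54.0 FPKM against 9.44 to 30.0 FPKM elsewhere. Whether the authors counted reads by strand is not given in the sources used here, so reads of overlapping genes cannot be told apart.

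Shown next are the sequences just before the start sites of BCL6 and PRDM1. They were picked since the genes lay on opposite sides of the untreated controls in all 6 Hodgkin libraries. They are the 250 bases before the most upstream start that RefSeq lists (GRCh38.p14), on the strand of the gene, chr3:187745469-187745718 for BCL6 and chr6:106086086-106086335 for PRDM1. Capitals mark matches, on either strand, to any of 5 short motifs: TGANTCA (AP-1), TTCNNNGAA (STAT and BCL6 type), an NF-kappaB type motif (3 G, any 5 bases, 2 C), TGACGTGG (XBP1 type) and CANNTG (E-box).
BCL6: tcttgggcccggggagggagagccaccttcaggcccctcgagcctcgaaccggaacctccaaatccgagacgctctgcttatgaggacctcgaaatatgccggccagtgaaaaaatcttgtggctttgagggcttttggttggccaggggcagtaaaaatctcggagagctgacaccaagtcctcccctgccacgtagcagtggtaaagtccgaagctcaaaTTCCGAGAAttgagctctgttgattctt
PRDM1: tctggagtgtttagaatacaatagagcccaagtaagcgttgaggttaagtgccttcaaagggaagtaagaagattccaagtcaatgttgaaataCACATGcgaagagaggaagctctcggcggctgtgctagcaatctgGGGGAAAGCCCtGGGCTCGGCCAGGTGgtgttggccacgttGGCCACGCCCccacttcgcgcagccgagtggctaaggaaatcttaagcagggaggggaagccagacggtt
The BCL6 window held 1 match, to TTCNNNGAA, 28 to 20 bases before the start. A match to those letters occurs in 6.57% of all 35116 promoter windows of that length. The PRDM1 window held 4 matches to the NF-kappaB type motif, of which 2 overlap each other by all but a single base, and 2 to CANNTG, of which the nearer shares its first base with another of these. Such matches are common, as 54.4% of all windows hold the first of these motifs and 61.8% the second.

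XBP1 lies on chromosome 22 (GRCh37 chr22:29190543-29196585, minus strand) and was the most abundant of the 7 genes in every library. Its levels were 131 and 151 FPKM in Reh, 90.1 and 125 in Reh_PMA, 80.3 and 85.7 in Namalwa, 36.1 and 72.0 in KM-H2, 62.8 and 78.0 in L1236, and 105 and 191 in L428. The libraries of L428 overlapped those of Reh and Reh_PMA, and those of KM-H2 overlapped those of L1236, while the other pairs of conditions did not overlap. No neighbours in the order of levels differed beyond their spread. The table gives a total per gene and so does not separate the spliced, active form of the transcript from the unspliced one.

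MYBL1 (A-MYB) is a transcription factor of the MYB family that is high in dividing germinal centre cells. It was at 2.40 and 1.76 FPKM in Reh, 0.294 and 0.596 in Reh_PMA, 10.3 and 10.9 in Namalwa, 1.75 and 1.84 in KM-H2, 2.17 and 2.40 in L1236, and 12.7 in both L428 libraries. L428 and Namalwa formed a high pair that did not differ from each other beyond the spread. L1236, Reh and KM-H2 formed a lower group without differences between neighbours, and Reh_PMA lay below that group.

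SDC1 (syndecan-1) is the heparan sulphate proteoglycan by which plasma cells are recognised, and lies on chromosome 2 (GRCh37 chr2:20400558-20425194, minus strand). It was low everywhere, at 1.82 and 3.99 FPKM in Reh, 0.128 and 0.161 in Reh_PMA, 0 and 0.0764 in Namalwa, 0.0873 and 0 in KM-H2, 0.382 and 0.174 in L1236, and 1.87 and 0.491 in L428. Reh, the precursor line, had the highest mean level of this plasma cell marker. SDC1 entered the tests through Reh and a single L428 library, the 3 libraries in which it reached 1 FPKM. The filter thus favoured a difference between Reh and the low conditions. Reh exceeded L428 beyond the spread and no neighbours below Reh differed, but with a pseudocount of 0.1 the step from Reh to L428 did not exceed the spread and that from L428 to L1236 did.

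CD27, a receptor of the TNF receptor family on memory B cells and plasma cells, lies on chromosome 12 (GRCh37 chr12:6554121-6560884, plus strand). It was at 23.6 and 38.0 FPKM in Namalwa and at 17.6 and 9.55 in L1236. The remaining values were 0.267 and 0.183 in Reh, 0.0566 and 0 in Reh_PMA, 0 in both KM-H2 libraries, and 0.634 and 0.130 in L428. CD27 was thus confined, at 1 FPKM or more, to 1 control line and 1 Hodgkin line, and Namalwa exceeded L1236, and L1236 exceeded L428, beyond the spread. With a pseudocount of 0.1 the first of these steps did not exceed it, and the step from Reh to Reh_PMA did. CD27-AS1 overlaps 6653 bp of the gene on the opposite strand. The antisense gene followed another pattern, with 0.581 and 0.976 FPKM in Namalwa, 6.04 and 6.42 in L1236, and its highest value, 10.3, in L428.

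CD38, a surface enzyme that consumes NAD and is found on precursor, germinal centre and plasma cells, lies on chromosome 4 (GRCh37 chr4:15779898-15854855, plus strand). It was at 51.6 and 48.5 FPKM in Reh, 10.0 and 11.6 in Reh_PMA, 44.9 and 33.5 in Namalwa, 0 in both KM-H2 libraries, 0.627 and 1.35 in L1236, and 0 and 0.113 in L428. Every Hodgkin library lay far below every control library, and Reh_PMA lay between. Reh and Namalwa did not differ beyond the spread, nor did L428 and KM-H2, and the other 3 steps in the order did. Over all 7 genes, 22 of 35 intervals between neighbouring conditions held 0.

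**Figure D2:**
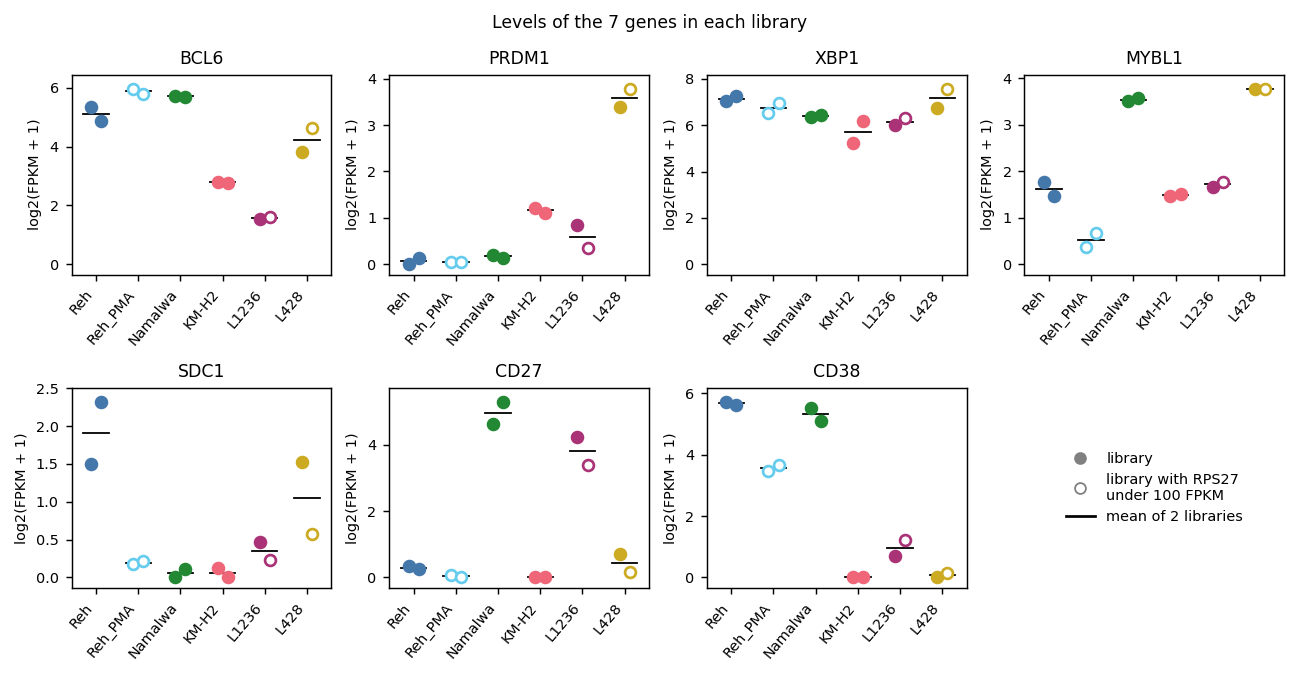
Levels of the 7 genes as log2(FPKM + 1) in each library, by condition, with a bar at the mean of the 2 libraries and open circles for libraries with RPS27 under 100 FPKM; the vertical scale differs between genes. CD38 falls to between 0 and 1.35 FPKM in the Hodgkin lines, BCL6 is lower in each of them than in the untreated controls, and XBP1 lies between 36.1 and 191 FPKM.

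To ask which of the 7 genes separated the Hodgkin lines from the control lines as types, each untreated line was taken as 1 value and the 3 Hodgkin lines were compared with the 2 controls. CD38 was lower and was the single member that passed. The difference was -5.15 on the log2(FPKM + 1) scale (SE 0.490, limma adjusted p = 0.027), lower in 6 of 6 Hodgkin libraries. A gene passed here, and in every comparison below, if its adjusted p was under 0.05 and its difference at least 2-fold on that scale. Among the 14679 genes tested, 0.225% passed as lower and 0.32% as higher. No member was higher by limma's test. At an unadjusted p under 0.05 by limma, 2 of the 7 genes, CD38 and BCL6, differed, as did 1983 of the 14679 genes tested. For BCL6 the difference was -2.54 (SE 0.803, limma adjusted p = 0.29), and for PRDM1 it was 1.66 (SE 0.945, limma adjusted p = 0.49). CD38 entered the tests through Reh, Reh_PMA and Namalwa, as a single Hodgkin library reached 1 FPKM, so the filter favoured its fall. With so few lines the call for CD38 was not stable. It was lost without L1236 library 0 (-5.06, limma adjusted p = 0.059), with any line left out (-4.97 to -5.46, limma adjusted p = 0.068 to 0.16), with a pseudocount of 0.1 and with no filter on low values, although the difference was -4.97 or beyond in each of these. With libraries in place of lines as the unit, BCL6, PRDM1 and CD27 passed as well. Duplicate libraries of 1 line are not replicates of the lymphoma type, so these passes do not show a difference between types. CD27 was lower there (-1.21), but 1.12 over lines without Namalwa.

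Each Hodgkin line was then set against the mean of the control lines in a fit over all 12 libraries. These comparisons share their control libraries, and their values are given side by side. In KM-H2, 1 member rose and 5 fell, where 16.8% and 13.5% of all genes did. In L1236, 1 rose and 2 fell, with 15.7% and 13.3% of all genes. In L428, 2 rose and 3 fell, with 16.2% and 13.8% of all genes. CD38 and BCL6 were lower in each of the lines. Fewer cells expressing a gene and less RNA per cell cannot be told apart in such bulk samples.

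The CD38 differences were -5.49 in KM-H2, -4.53 in L1236 and -5.42 in L428 (SE 0.203, limma adjusted p at most 2.9e-07). The filter favoured these falls, as it did over lines. For BCL6 the differences were -2.62 in KM-H2, -3.84 in L1236 and -1.18 in L428 (SE 0.238, limma adjusted p at most 0.0032). The BCL6 call in L428 rested on the library without low RPS27, since without L428 library 0 the difference was -0.76 (limma adjusted p = 0.025), under 2-fold. PRDM1 was higher in L428 (3.47, SE 0.171, limma adjusted p = 5.5e-07) and in KM-H2 (1.04, SE 0.171, limma adjusted p = 0.00094), and not past the 2-fold limit in L1236 (0.48), where it passed with a pseudocount of 0.1 (1.71, limma adjusted p = 0.0082). PRDM1 entered the tests through KM-H2 and L428 alone, so the filter favoured these rises, and both calls held with no filter on low values. In KM-H2, whose PRDM1 level was close to 1 FPKM, the call was lost without KM-H2 library 0 (0.98) and after quantile normalisation (0.67).

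The other members went different ways in the Hodgkin lines. MYBL1 rose in L428 (1.20, SE 0.167, limma adjusted p = 0.00034) and fell in KM-H2 (-1.09, limma adjusted p = 6e-04), and its difference in L1236 was -0.86, and -1.01 with a pseudocount of 0.1, which passed. Its rise in L428 was 0.96, under 2-fold, after rescaling each library to the same total, a step that lowered the median difference over all genes from -0.008 to -0.195. CD27 fell in KM-H2 (-2.62, SE 0.274, limma adjusted p = 5.4e-05) and in L428 (-2.18, limma adjusted p = 0.00018) and rose in L1236 (1.18, limma adjusted p = 0.0066). The controls of CD27 are themselves unequal, so that L1236 lay below Namalwa and above Reh, and without L1236 library 0 the difference was 0.78 (limma adjusted p = 0.071). CD27 entered the tests through Namalwa and L1236 alone, so the filter favoured its differences. XBP1 was lower in KM-H2 (-1.07, SE 0.323, limma adjusted p = 0.023), and its differences in L1236 and L428 were -0.62 and 0.38. That call was lost without KM-H2 library 0 (-0.58), Reh library 1 (-1.02) or Namalwa library 1 (-1.04). SDC1 passed in none of the 3 lines (differences -0.92, -0.63 and 0.07), with limma's unadjusted p under 0.05 in KM-H2 (0.0094), and it passed there without Reh library 0 (-1.13) or with a pseudocount of 0.1 (-2.16).

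**Figure D3:**
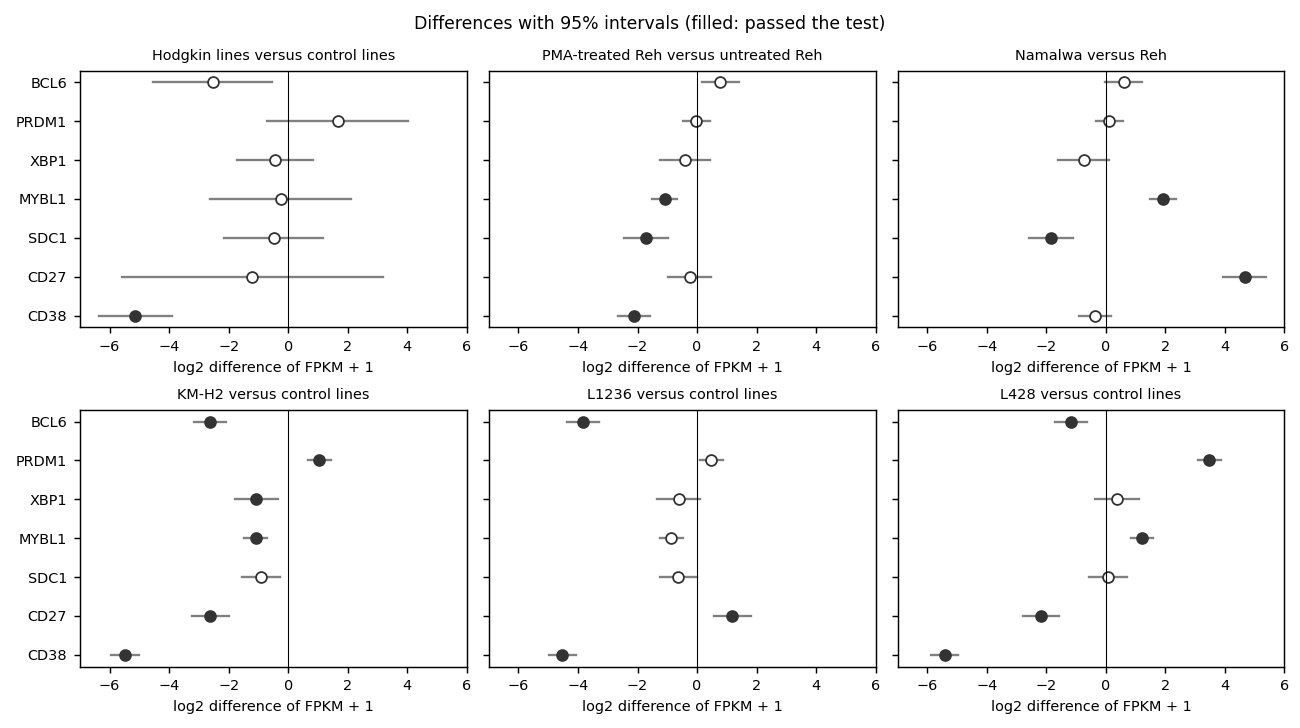
Differences of log2(FPKM + 1) for the 7 genes in 6 comparisons, with 95% intervals; filled circles passed the test. The intervals of the Hodgkin lines as types, from 5 line values, are the widest, and CD38 is the filled circle there at -5.15.

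Whether the Hodgkin lines differed among themselves was tested directly. Of the 7 genes, 5 differed between them, against 42.2% of all genes. The largest difference between any pair of lines was 3.81 for CD27, 2.99 for PRDM1, 2.66 for BCL6, 2.30 for MYBL1 and 1.45 for XBP1 (limma adjusted p at most 0.024). The filter favoured the differences of CD27 and PRDM1, which entered the tests through the lines where they were high. SDC1 (0.99, limma adjusted p = 0.065) and CD38 (0.97, limma adjusted p = 0.012) did not pass. For XBP1 the call was lost without KM-H2 library 0 (1.00, limma adjusted p = 0.053) or L428 library 1 (1.02, limma adjusted p = 0.15). Near the limit on the other side, CD38 passed without L1236 library 0 (1.23) and SDC1 without L428 library 1 (1.46), and both did with a pseudocount of 0.1 (3.36 and 2.98). SDC1 passed also with library kind as a term (1.28).

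Namalwa and Reh, the control lines, stand for different B cell stages. CD27 was higher in Namalwa by 4.66 (SE 0.316, limma adjusted p = 6.5e-06) and MYBL1 by 1.92 (SE 0.192, limma adjusted p = 7.3e-05), and SDC1 was lower (-1.85, SE 0.323, limma adjusted p = 0.0024). Thus 2 members rose and 1 fell, against 7.5% and 11.5% of all genes. SDC1 had entered the tests through Reh, and with a filter on mean FPKM it was not tested and 2 members passed. CD27 had entered through Namalwa and L1236 alone, so the filter favoured its rise in Namalwa as well. BCL6 (0.61), CD38 (-0.36), XBP1 (-0.75) and PRDM1 (0.11) did not pass.

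PMA was given to Reh as an inflammatory stimulus that acts on several pathways. CD38, SDC1 and MYBL1 fell, and no member rose. These are 3 of 7 genes, against 11.8% of all genes lower and 10.5% higher. SDC1 entered the tests through its level in Reh, so its fall was set in part by the filter; with a filter on mean FPKM it was not tested, and 2 members passed. The differences were -2.11 for CD38 (SE 0.235, limma adjusted p = 0.00028), -1.71 for SDC1 (SE 0.323, limma adjusted p = 0.0044) and -1.09 for MYBL1 (SE 0.192, limma adjusted p = 0.0032), each with both Reh_PMA libraries below both Reh libraries. In mean FPKM, Reh exceeded Reh_PMA 4.63-fold for CD38, 4.67-fold for MYBL1 and 20.1-fold for SDC1, and, with any of the 4 libraries left out, 4.32-fold to 4.99-fold for CD38, 3.49-fold to 7.08-fold for MYBL1 and 12.6-fold to 27.6-fold for SDC1. BCL6 was higher in both treated libraries, by 0.77 (SE 0.275, limma unadjusted p = 0.02, adjusted p = 0.059), which did not pass. Neither PRDM1 (-0.02), XBP1 (-0.40) nor CD27 (-0.25) passed, and PRDM1 stayed below 0.1 FPKM in both conditions.

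Since the treated libraries were both of the kind with low RPS27, the same differences were computed with library kind as a term. CD38 (-2.46, SE 0.298, limma adjusted p = 0.0015) and MYBL1 (-1.14, SE 0.276, limma adjusted p = 0.023) passed in that fit, and SDC1 did not (-1.12, SE 0.374, limma adjusted p = 0.069). For CD38 this pass carries little weight, since the term is set by L1236 and L428, where CD38 was at most at 1.35 FPKM, and could hardly have removed a difference at the level of Reh. The value for BCL6 was 0.31, for XBP1 -0.99 and for CD27 0.42, none of which passed. Within the lines that had both kinds, the library with low RPS27 minus the other gave -0.24 in L1236 and -0.95 in L428 for SDC1, 0.53 and 0.15 for CD38, and 0.10 and 0.01 for MYBL1. The MYBL1 fall was close to the 2-fold limit: it was -0.94 without Reh library 0 and, likewise, -0.94 without Reh_PMA library 0, and -0.79 after quantile normalisation.

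**Figure D4:**
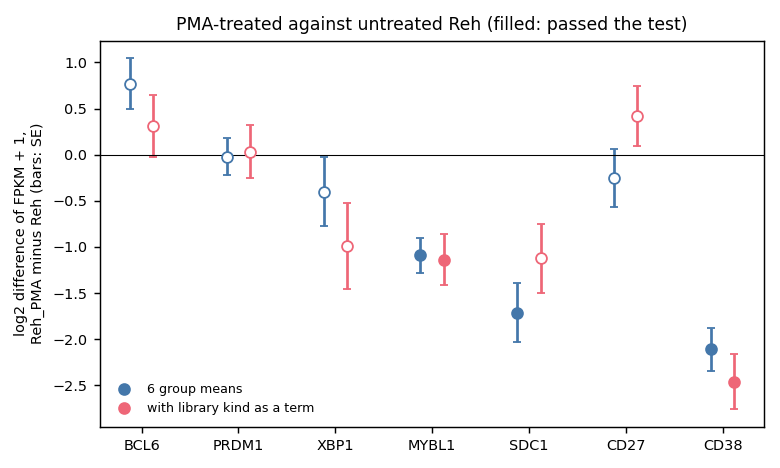
Difference of log2(FPKM + 1), Reh_PMA minus Reh, for the 7 genes with SE bars, from the 6 group means (blue) and with library kind as a term (red); filled circles passed the test. CD38 and MYBL1 are filled in both, the term for CD38 resting on levels of at most 1.35 FPKM, and SDC1 moves from -1.71 to -1.12 and is open in the second.

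SDC1 and CD38, both lower in the Reh_PMA than in the Reh libraries, although SDC1 did not pass with library kind as a term, are shown with the 250 bases before their most upstream RefSeq starts, chr2:20225476-20225725 (minus strand) and chr4:15778078-15778327 (plus strand) in GRCh38.p14, with capitals as above.
SDC1: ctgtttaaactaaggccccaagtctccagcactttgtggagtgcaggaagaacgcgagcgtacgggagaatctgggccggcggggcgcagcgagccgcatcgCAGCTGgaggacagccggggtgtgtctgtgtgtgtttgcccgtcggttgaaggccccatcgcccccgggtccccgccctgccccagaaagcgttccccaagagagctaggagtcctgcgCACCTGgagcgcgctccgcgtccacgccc
CD38: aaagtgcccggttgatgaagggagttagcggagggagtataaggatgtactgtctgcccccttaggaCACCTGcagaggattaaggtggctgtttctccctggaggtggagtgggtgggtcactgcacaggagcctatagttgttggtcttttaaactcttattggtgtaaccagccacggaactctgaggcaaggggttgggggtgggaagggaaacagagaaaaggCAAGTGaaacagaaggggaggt
Each held 2 matches to CANNTG and no match to the other 4 motifs, the PMA-responsive AP-1 letters TGANTCA among them. The windows differ in composition, with 66.4% G and C and 23 CpG steps for SDC1 against 52.4% and 3 for CD38. RefSeq windows were matched for 6 of the 7 genes. TGANTCA, which 6.57% of all windows hold, occurred in that of CD27 alone among the 6, and TGACGTGG, held by 0.612%, in none.

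The wider programmes to which the genes belong were described from lists of genes, several of which contain members. Their counts can be read against the shares of all genes given above, which were 15.7% to 16.8% higher and 13.3% to 13.8% lower in the Hodgkin lines and 10.5% higher and 11.8% lower after PMA. With lines as the unit, 0.32% were higher and 0.225% lower. At an unadjusted p under 0.05 by limma, 1983 of the 14679 genes differed with lines as the unit, 7876 in KM-H2, 7699 in L1236, 7816 in L428 and 6265 after PMA. Counts with library kind as a term include genes that L1236 and L428 barely express, which the term could hardly move. In the germinal centre programme, 28 of 30 genes were tested. Compared with the controls, 4 rose and 20 fell in KM-H2, 2 rose and 19 fell in L1236, and 5 rose and 16 fell in L428, with medians of -1.70, -1.42 and -1.38 where the median of all genes tested was between -0.01 and 0. Without the L1236 and L428 libraries that stand apart, 17 fell in L1236 and 16 in L428. Taking lines as the unit, MME, a membrane peptidase of precursor and germinal centre B cells, fell (-6.46, SE 0.432, limma adjusted p = 0.012), with 0 FPKM in KM-H2 and L1236 against 76.7 to 123 FPKM in the controls. The filter favoured the fall of MME, which reached 1 FPKM in no Hodgkin library. FAS, a death receptor, rose (4.42, SE 0.474, limma adjusted p = 0.041), from 1.26 to 3.29 FPKM in the controls to 39.0 to 161 FPKM in the Hodgkin lines. The FAS call was lost without the libraries that stand apart (4.25, limma adjusted p = 0.058), with any line left out and without each of 4 single Hodgkin libraries, and that of MME with KM-H2, L1236, L428 or Reh left out, and both with no filter on low values. In these settings the difference lay between 4.01 and 4.68 for FAS and between -6.18 and -6.65 for MME. Namalwa against Reh had 15 of the genes higher and 2 lower, where 7.5% and 11.5% of all genes were.

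The lower sum of the precursor markers after PMA, given above, stands beside the values that follow, MME being in both lists, and its part in them was not tested. Following PMA, 4 of the 28 germinal centre genes rose and 10 fell, against 10.5% and 11.8% of all genes, with a median of -0.17. CXCR4, the chemokine receptor of the dark zone, fell (-3.71, SE 0.325, limma adjusted p = 7e-05) from 134 and 135 FPKM to 6.90 and 12.5 FPKM. MME (-3.57) and the transcriptional repressor BACH2 (-2.86) fell as well, and RGS13, a regulator of G-protein signalling, rose by 5.19 to 61.4 and 46.7 FPKM. MEF2C, a transcription factor of germinal centre B cells, was abundant at 286 and 273 FPKM after PMA but its difference of 0.79 was under 2-fold. With library kind as a term, 1 gene rose and 9 fell, and CXCR4 (-4.3) and RGS13 (3.73) passed. MME and BACH2, at most at 0.641 and 3.41 FPKM in L1236 and L428, were not tested in effect by that term.

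Of the 20 plasma cell programme genes tested out of 24, 6 rose and 8 fell in KM-H2, 6 rose and 7 fell in L1236, and 6 rose and 8 fell in L428. The medians were -0.44, -0.41 and -0.02. Without the libraries that stand apart, 5 rose and 5 fell in L1236 and 6 rose and 6 fell in L428. With lines as the unit, CD38 was the single gene of the list to pass. JCHAIN, which joins secreted antibody subunits, was at 769 and 1200 FPKM in Namalwa and at most at 0.942 FPKM in every other library. SEC11C, a subunit of the signal peptidase, reached 345 and 602 FPKM in L428, and its difference over lines did not pass (1.57, limma adjusted p = 0.42). After PMA, 3 of the 20 genes rose and 4 fell, where 10.5% and 11.8% of all genes did. CAV1, a membrane scaffold protein, rose by 6.10 to 262 and 145 FPKM from 2.21 and 1.56 FPKM, whereas MZB1, an antibody chaperone of the endoplasmic reticulum, fell (-2.89, limma adjusted p = 0.0053) from 97.3 and 106 FPKM to 9.97 and 16.5 FPKM. DERL3, of the degradation pathway of the endoplasmic reticulum, fell too (-1.84). With library kind as a term, 3 rose and 3 fell, and MZB1 did not pass (-2.73), nor did it without Reh_PMA library 0 (-2.55) or with a pseudocount of 0.1 (-2.98).

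Genes of the unfolded protein response and of secretion, a list that holds other sensors and branches of the response besides that of XBP1, were in part higher in treated Reh, where XBP1 itself did not pass. After PMA, 8 of 21 rose and none fell by limma's test, against 10.5% and 11.8% of all genes, and the median was 0.92 against -0.03 for all genes. With library kind as a term, 6 rose and none fell by limma's test. An unadjusted p under 0.05 by limma was held by 11 of the 21 without the term, and by 6265 of all 14679 genes. With the term it was held by 10 of the 21, for which the count over all genes is not given here. HSPA5 (BiP), the chief chaperone of the endoplasmic reticulum, rose by 3.01 (SE 0.422, limma adjusted p = 0.00095), from 4.24 and 6.52 FPKM to 41.4 and 59.5 FPKM. SDF2L1 (1.94), DNAJC3 (1.90) and HSP90B1 (1.81), also chaperones or their partners, rose as well. All 4 passed with the kind term, at 3.98 for HSPA5, 3.06 for SDF2L1, 1.61 for DNAJC3 and 2.2 for HSP90B1. The call for SDF2L1 was lost after rescaling and without either Reh library or Reh_PMA library 1, with differences of 1.48 to 2.07. The transcription factor ATF4 (-0.47) and the chaperone CALR (0.56), the most abundant genes that did not pass, lay between 247 and 606 FPKM in Reh and Reh_PMA. Over lines, none of the 21 passed between Hodgkin and control lines by limma's test. An unadjusted p under 0.05 by limma was held by 4 of them, and by 1983 of all 14679 genes. In the separate lines, 5 rose and 2 fell in KM-H2, 1 rose and 1 fell in L1236, and 2 rose and 2 fell in L428, or 1 and 1 there without the libraries that stand apart.

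Of 18 tested genes known to be repressed by BCL6 in B cells, 11 rose and 2 fell in KM-H2, 10 rose and 3 fell in L1236, and 11 rose and 3 fell in L428, with medians of 1.35, 1.24 and 2.45. Without the libraries that stand apart, 9 rose and 3 fell in L1236 and in L428 alike. CCND2, a D-type cyclin, passed over lines (6.30, SE 0.579, limma adjusted p = 0.026), from at most 1.57 FPKM in the controls to 62.5 to 247 FPKM, as the single gene of the 18. Its call was lost without the libraries that stand apart (6.14, limma adjusted p = 0.058), with any line left out, without L428 library 0, with a pseudocount of 0.1 and with no filter on low values. The difference for CCND2 lay between 5.73 and 8.28 in these settings. ID2, an inhibitor of E proteins (2.61, limma adjusted p = 0.088), and the chemokine CXCL10 (6.0, limma adjusted p = 0.19) did not pass over lines. After PMA, 4 of the same list rose and 2 fell, against 10.5% and 11.8% of all genes. ID2 rose by 4.79, the activation marker CD69 by 4.08 and the cell cycle inhibitor CDKN1A by 2.54, and BCL2, an inhibitor of apoptosis, fell (-2.20). ID2 (3.91), CDKN1A (2.21) and BCL2 (-2.47) passed with library kind as a term. That term could hardly move CD69, at most at 1.44 FPKM in L1236 and L428. CXCL10, listed at 0 in all 4 Reh and Reh_PMA libraries, was given a difference of -1.74 by that term, which shows its limit for genes that the lines of either kind express and Reh does not.

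Of 15 tested genes known to be repressed by PRDM1 in plasma cells, none rose by limma's test and 13 fell in KM-H2 (13 at an unadjusted p under 0.05), 1 rose and 10 fell in L1236, and 2 rose and 11 fell in L428, with medians of -2.83, -1.92 and -1.43. Without the libraries that stand apart, 8 fell in L1236 and 9 in L428. Following PMA, 1 rose and 8 fell, where 10.5% and 11.8% of all genes did, and the median was -1.16. E2F1 (-2.52) and MYC (-2.14), transcription factors of cell division, fell, as did the kinase BLK (-2.23) and the E protein inhibitor ID3 (-2.04). With library kind as a term, 1 rose and 5 fell, and MYC did not pass (-1.38), nor did it in the 4 Reh and Reh_PMA libraries alone (limma adjusted p = 0.051).

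**Figure D5:**
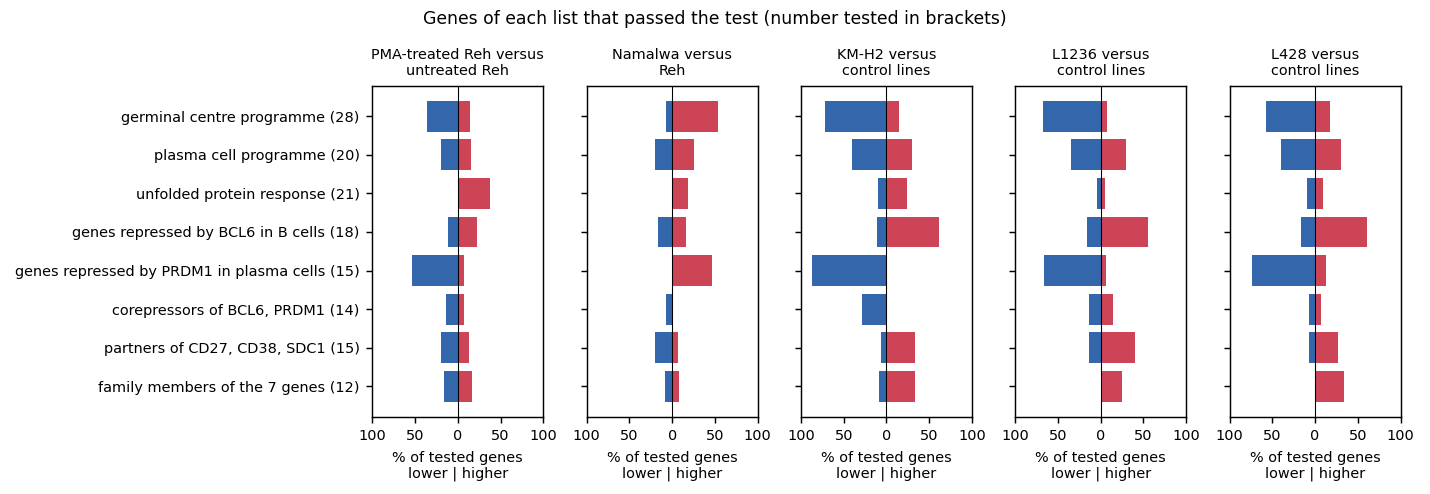
Share of the tested genes of each list that passed as higher (red, to the right) or lower (blue, to the left), in percent, in 5 comparisons; the number tested stands in brackets. The unfolded protein response list has 8 of 21 genes higher and none lower with PMA, and genes repressed by PRDM1 are lower in 13 of 15 in KM-H2.

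Of 14 corepressors and partners of BCL6 and PRDM1, none passed between Hodgkin and control lines by limma's test. An unadjusted p under 0.05 by limma was held by 1 of them, and by 1983 of all 14679 genes. HDAC1 and CHD4, the most abundant, had differences of -0.54 and -0.07. In KM-H2, none rose by limma's test and 4 fell, with 5 at an unadjusted p under 0.05, in L1236, 2 rose and 2 fell, and in L428, 1 rose and 1 fell. After PMA, 1 of the 14 rose and 2 fell, against 10.5% and 11.8% of all genes. TLE1, a corepressor of the Groucho family (-2.41), and the histone methyltransferase EHMT2 (-1.77) fell, and the histone methyltransferase EZH2 rose (1.62, limma adjusted p = 0.048), although EZH2 did not pass with library kind as a term (1.48) or with any of the 4 Reh and Reh_PMA libraries left out (1.34 to 1.90, limma adjusted p = 0.094 to 0.24), nor in several other alternatives.

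Among the ligands, adaptors and enzyme partners of CD27, CD38 and SDC1, none of 15 passed over lines by limma's test. At an unadjusted p under 0.05 by limma there was 1 of them, and there were 1983 of all 14679 genes. In the separate lines, 5 rose and 1 fell in KM-H2, 6 rose and 2 fell in L1236, and 4 rose and 1 fell in L428. CD70, the ligand of CD27, was at 197 and 251 FPKM in KM-H2, where CD27 was listed at 0, and its difference over lines was 1.56 (limma adjusted p = 0.43). With PMA, 2 rose and 3 fell, where 10.5% and 11.8% of all genes did. CD70 fell (-1.45), as did SIVA1 (-1.45), a binding partner of the CD27 tail. Without Reh library 1 neither passed (-1.17 and -1.23), and CD70 did not without Reh_PMA library 0 (-1.13) or in the 4 Reh and Reh_PMA libraries alone. NT5E, an ectoenzyme that forms adenosine, rose (3.02, SE 0.299, limma adjusted p = 0.00015), from 1.23 and 0.954 FPKM to 23.9 and 10.5 FPKM. The filter favoured this rise, since NT5E reached 1 FPKM in the Reh_PMA libraries and 1 Reh library alone, and the call held with no filter. SDCBP (syntenin), which binds syndecan tails, rose by 1.86. CD70, SIVA1 and SDCBP passed with library kind as a term, which could hardly move NT5E, at most at 0.170 FPKM in L1236 and L428.

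Of 12 relatives of the 7 genes, 2 rose and 2 fell after PMA, against 10.5% and 11.8% of all genes. SDC2 rose (3.36, SE 0.186, limma adjusted p = 6.1e-06) to 12 and 10.9 FPKM from 0.154 and 0.281 FPKM, where SDC1 fell. MYB fell (-3.19), as MYBL1 did, while MYBL2 had a difference of 1.70 that did not pass (limma adjusted p = 0.14). BCL6B rose by 2.28, and ATF6B fell (-1.14) but not with library kind as a term (-0.73) or after rescaling (-1.06). None of the 12 passed over lines by limma's test, and 2 had an unadjusted p under 0.05, where 1983 of all 14679 genes did. In the separate lines, 4 rose and 1 fell in KM-H2, 3 rose and none fell in L1236, and 4 rose and none fell in L428 (4 and 6 at an unadjusted p under 0.05 by limma in the last 2). The 4 in L428 were 2 with library kind as a term and 2 without the libraries that stand apart.

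Finally, the genes whose log2(FPKM + 1) over the 12 libraries was most like that of each member were listed as a description. For CD38 these were GNG7, CD79B and DOK3 (Pearson r = 0.986, 0.986 and 0.985), all with means of at most 1.01 FPKM in the Hodgkin lines. For PRDM1 they were LGALS3, CYP2J2 and RYR2 (0.988, 0.987 and 0.987), each highest in L428. MYBL1 was followed most closely by SERPINB9, LIG3 and DIAPH2 (0.984, 0.949 and 0.945), and CD27 by NUGGC, ZNF532 and CCDC181 (0.974, 0.971 and 0.968). The nearest to BCL6 were RBM26, EVL and RBM26-AS1 (0.961, 0.960 and 0.954). SDC1 was matched by ZNF559-ZNF177, CERS6-AS1 and LOC101927318 (0.957, 0.941 and 0.939), and XBP1 by PDSS2, LRIG2 and HTR7P1 (0.930, 0.904 and 0.898). The 12 libraries share lines and library kinds, so these coefficients carry no test.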

How the data were processed

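The values are FPKM per gene as deposited; the authors aligned reads of stranded, ribosomal RNA-depleted total RNA libraries, sequenced on 2 kinds of instrument, to hg19 with TopHat2 2.0.11 and scaled them with Cuffnorm 2.2.1, per the submitters' processing notes. Depth is known only relative to Reh library 0, from the spacing of values under 0.3 FPKM. Column numbers could not be tied to replicate numbers. Genes with at least 1 FPKM in at least 2 libraries (14679, all 7 members included) were tested on log2(FPKM + 1), which understates changes of low genes, with limma 3.58.1 and an intensity trend in R 4.3.3, with Benjamini-Hochberg adjustment over all genes tested. Hodgkin against control lines used 5 line means; the other comparisons used 6 group means over 12 libraries, and a test over 2 contrasts among the Hodgkin lines. The scripts were tested on simulated data. Alternatives were another pseudocount, filter, scaling or unit, no trend, a replicate block, leaving out libraries or lines, and, chosen after seeing the data, library kind (RPS27 under 100 FPKM) as a term and leaving out the L1236 and L428 libraries of that kind. Named genes were the members, up to 4 passing genes with the largest difference and up to 2 others with the highest mean from each of 8 lists in the Hodgkin and PMA comparisons, and the 3 genes most correlated with each member; the other markers, CD27-AS1 and ATG5 were chosen otherwise. A gene that this rule names is not reported here. The germinal centre list lost P2RY8 and SERPINA9 to the filter, the plasma cell list TNFRSF13B, SLAMF7, LAX1 and CCR10, and the BCL6 list CCR6; IGJ, an older symbol of JCHAIN, stood in the list beside it and was not counted. Members and lists were chosen with earlier results of these data known. Gene positions came from GENCODE lifted to GRCh37, and promoter windows from RefSeq (GRCh38.p14).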

Additional observations from a re-analysis of the deposited data

Results flagged for a closer look

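The Hodgkin lines differed from each other in 5 of the 7 genes by limma's test of the difference among KM-H2, L1236 and L428, a test that 42.2% of all genes passed. The largest difference between any pair of lines, on the log2(FPKM + 1) scale, was 2.66 for BCL6 (limma adjusted p = 0.00014), with L428 the highest and L1236 the lowest. PRDM1 differed by 2.99 (limma adjusted p = 5.6e-06) and MYBL1 by 2.30 (limma adjusted p = 2e-05), both with L428 the highest. CD27 differed by 3.81 (limma adjusted p = 2e-05), from L1236 to KM-H2, where it was listed at 0. The filter favoured the differences of PRDM1 and CD27, as given above. XBP1 differed by 1.45 (limma adjusted p = 0.024), and by 1.02 (limma adjusted p = 0.21) without the L1236 and L428 libraries that stand apart.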

How the results depend on the processing

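Of the differences of single members under all alternatives, 1001 kept their direction and their side of the threshold, 23 lost a call, 18 gained one and 15 changed sign, none of these 15 called on either side. The comparison of Hodgkin with control lines depended most on the processing. It gave 80 genes, against 11 with no filter, 183 without Namalwa, 20 without the L1236 and L428 libraries that stand apart and 0 without KM-H2, L1236, L428 or Reh (2331, 1768, 1729 and 1420 genes at an unadjusted p under 0.05 by limma). With libraries as the unit it gave 3614, and, in that fit over libraries, 3643 with a replicate block and 3554 with library kind as a term. Such fits take duplicate libraries of a line as replicates of the type, which they are not. Leaving out 1 library gave 27 to 88, and 27 to 35 for each of the 6 Hodgkin libraries. Members passing there numbered 1, against 0 with a pseudocount of 0.1, no filter or any line left out, 0 to 1 with a library left out, and, with libraries as the unit, 4 alone, 4 with a replicate block and 3 with library kind as a term. Fewer lines or more genes tested are part of some of these settings by construction; the cause was otherwise not tested. Adjusted p for CD38 lay at 0.16 or less throughout.

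For PMA, 3265 genes passed, and 2082 to 3363 with a library left out (2168 without Reh library 0 and 2082 without Reh_PMA library 0). In L1236, 3 members passed, and 5 with a pseudocount of 0.1. Sign changes, all of uncalled values, were as follows. Over lines, MYBL1 was 0.17 without KM-H2, 0.06 without L1236 and 0.71 without Namalwa, CD27 was 1.12 without Namalwa, and SDC1 was 0.43 without Reh. With PMA, PRDM1 was 0.03 after quantile normalisation and with library kind as a term, and -0.09 to 0.04 with a library left out, and CD27 was 0.42 with library kind as a term. In L428, SDC1 was -0.02 after rescaling, 0 after quantile normalisation and -0.40 to 0.54 with a library left out, and XBP1 was -0.04 without the libraries that stand apart and -0.04 to 0.81 with a library left out. Rescaling to equal totals moved the L428 split from 2371 higher and 2033 lower genes to 1802 and 2474. It moved the PMA split from 1534 higher and 1731 lower genes to 1395 and 1192. With a pseudocount of 0.1, 21 of 35 neighbour intervals held 0, in place of 22, and 5 changed: PRDM1 L1236 to Namalwa, SDC1 L428 to L1236 and CD27 Reh to Reh_PMA no longer held 0, and SDC1 Reh to L428 and CD27 Namalwa to L1236 now did.

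The column numbers were not taken to pair the libraries, as 6 of 15 correlations between conditions of the difference between their libraries were over 0.1 (range -0.045 to 0.68) and the others were not. The replicate block changed no member's call outside the Hodgkin and control line comparison. Where a library was left out, the lone library was assumed to vary like the others. Levels under 1 FPKM rest on few reads, most of all in KM-H2.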
